A study of Homo sapiens with 183 samples.

Results

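RUVBL1 and RUVBL2 were compared with each other directly: libraries in which RUVBL2 was knocked out were set against libraries in which RUVBL1 was knocked out, within each of 3 human pancreatic ductal adenocarcinoma (PDAC) cell lines and without using the control. The comparison held 22 of the 183 libraries of the series, chosen by their labels. In AsPC-1 (experiment 3) there were 4 sgRUVBL1 and 4 sgRUVBL2 libraries, in T3M-4 (experiment 2) 3 and 4, and in BxPC-3 (experiment 2) 4 and 3. In T3M-4, 1 RUVBL1 knockout sample had been left out by the authors for low library concentration. All cells carried Cas9 stably and had received a lentiviral single guide RNA (sgRNA) against RUVBL1 (sgRUVBL1), RUVBL2 (sgRUVBL2) or the ROSA26 locus (sgRosa, the control, 4 libraries per experiment), with RNA taken on day 5. The paper describes 2 independent sgRNAs for each of these targets, with 2 replicates per sgRNA. Libraries of a group therefore share sgRNAs, and they may share a culture. The labels do not give the sgRNA of a library, so the fits treat the libraries of a group as independent. The p-values therefore measure the spread between libraries, which may be partly technical. AsPC-1 served as a model of the classical subtype of PDAC, and T3M-4 and BxPC-3 as models of the basal-like subtype.

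RUVBL1 and RUVBL2 are related AAA+ ATPases that form mixed rings. The rings sit in the INO80, SRCAP and TIP60 chromatin complexes. They also belong to the R2TP co-chaperone, which works with HSP90 to assemble RNA polymerase II, small nucleolar ribonucleoproteins (snoRNPs) and the PIKK kinases. In these PDAC lines the study placed both proteins with KLF5, a transcription factor of epithelial lineage identity. The question addressed here is whether loss of one partner left a different transcriptome from loss of the other.

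The deposited values are TPM (transcript levels scaled to a fixed library total) per gene, and each library summed to 1e+06, so sequencing depth is unknown. Of 19875 gene names, 11192 had a mean of at least 1 TPM in all 3 lines and were tested. Between 11788 and 13575 genes reached 1 TPM in a library. Epithelial markers (EPCAM, KRT8, KRT18, KRT19 and CDH1) were present in every group, summing to 4667 to 13868 TPM. Markers of basal-like PDAC (KRT5, KRT6A, KRT14, KRT17, TP63 and S100A2) summed to 12.5 to 25.6 TPM in AsPC-1, 3552 to 3878 TPM in T3M-4 and 12464 to 14277 TPM in BxPC-3. Markers of classical PDAC summed to 1656 to 2531 TPM in AsPC-1, 1947 to 2409 TPM in T3M-4 and 861 to 1025 TPM in BxPC-3, so they did not separate T3M-4 from AsPC-1. Of the markers of other cells, those of immune cells summed to 34.0 to 153 TPM, those of fibroblasts to 3.04 to 144 TPM and those of endothelium to 0.648 to 13.8 TPM. In AsPC-1, 1 of the 6 fibroblast markers had a mean of at least 1 TPM. AsPC-1 sgRUVBL2 replicate 2 stood apart from the other AsPC-1 libraries: its log2 values deviated from its group mean with an SD of 0.370 over genes, against 0.135 to 0.202 in the other AsPC-1 libraries. BxPC-3 sgRUVBL2 replicate 3 also stood apart, at root-mean-square log2 distances of 0.513 and 0.609 from the other sgRUVBL2 libraries, which lay 0.314 from each other. Among the controls, T3M-4 sgRosa replicate 4 lay 0.459 to 0.559 from the other sgRosa libraries, which lay 0.163 to 0.229 apart.

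The targeted genes were the clearest difference. RUVBL1 mRNA was lower in sgRUVBL1 and RUVBL2 mRNA lower in sgRUVBL2, in each line and with no overlap of the libraries. RUVBL1 lies at chr3:128064785-128153914 and RUVBL2 at chr19:48993448-49015995 (GRCh38). In AsPC-1, RUVBL1 measured 29.9, 27.4, 34.7 and 33.8 TPM in sgRUVBL1 and 74.0, 73.6, 68.9 and 74.7 TPM in sgRUVBL2. In T3M-4 it measured 47.3, 44.3 and 41.6 TPM in sgRUVBL1 and 108.8, 101.1, 104.1 and 106.2 TPM in sgRUVBL2. In BxPC-3 it measured 50.1, 51.7, 52.8 and 45.4 TPM in sgRUVBL1 and 97.0, 92.5 and 88.5 TPM in sgRUVBL2. Each sgRUVBL1 library lay below each sgRUVBL2 library of its line. With line as a block, RUVBL1 was higher in sgRUVBL2 by 1.103 on the log2(TPM + 1) scale (SE 0.05, 95% interval 0.99 to 1.22, limma adjusted p = 3.22e-12).

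RUVBL2 in AsPC-1 measured 137.7, 129.2, 124.6 and 119.4 TPM in sgRUVBL1 and 55.5, 31.4, 33.4 and 47.8 TPM in sgRUVBL2. The T3M-4 libraries held 127.0, 118.9 and 137.2 TPM in sgRUVBL1 and 50.1, 41.8, 46.3 and 43.9 TPM in sgRUVBL2. The BxPC-3 libraries held 230.2, 202.7, 208.6 and 187.5 TPM in sgRUVBL1 and 127.5, 74.5 and 80.05 TPM in sgRUVBL2. The groups did not overlap in any line, and BxPC-3 sgRUVBL2 replicate 1 kept the highest level among the sgRUVBL2 libraries. In the fit with line as a block, RUVBL2 fell by 1.43 in sgRUVBL2 relative to sgRUVBL1 (SE 0.10, 95% interval -1.63 to -1.23, limma adjusted p = 1.93e-09). In BxPC-3 alone the difference was -1.17 and did not pass (limma adjusted p = 0.434). Because sgRNA cuts leave much mutant mRNA in place, mRNA levels here check the labels and do not measure the remaining protein.

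**Figure D1:**
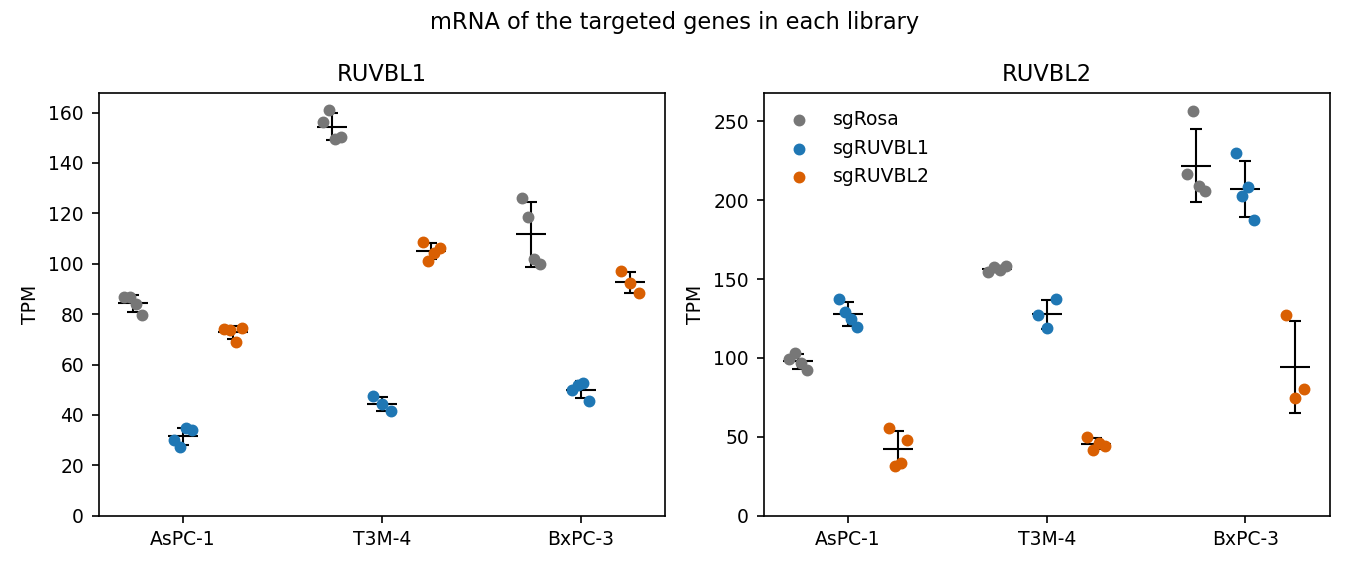
TPM of RUVBL1 (left) and RUVBL2 (right) in each library of the 3 lines, with 1 point per library, the horizontal bar at the group mean and error bars of 1 SD. RUVBL1 was lowest in sgRUVBL1 and RUVBL2 lowest in sgRUVBL2 in all 3 lines, and RUVBL1 in sgRUVBL2 lay between sgRUVBL1 and sgRosa.

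Each knockout was also read on the partner's mRNA against sgRosa. RUVBL1 mRNA in sgRUVBL2 stood at 86.4% of the sgRosa mean in AsPC-1, 68.1% in T3M-4 and 83.0% in BxPC-3, and each sgRUVBL2 library lay below each sgRosa library of its line. In sgRUVBL1, for comparison, RUVBL1 stood at 37.3%, 28.8% and 44.8% in the same order. The reverse reading had no common direction: RUVBL2 mRNA in sgRUVBL1 stood at 130.6% of sgRosa in AsPC-1, with each library above sgRosa, at 81.5% in T3M-4, with each library below, and at 93.4% in BxPC-3, where libraries overlapped. RUVBL2 in sgRUVBL2 stood at 43.0%, 29.1% and 42.4%. These are levels in percent of the sgRosa mean and were not tested.

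Beyond the targeted pair, few genes separated the knockouts. With line as a block, 5 of 11192 genes passed a Benjamini-Hochberg adjusted p of 0.05 (percent called 0.0447), namely RUVBL1, RUVBL2, CXCL1, MMP7 and HIST3H2A. With replicate number as a block 3 genes passed, RUVBL1, RUVBL2 and the galectin gene LGALS1 (0.27, limma adjusted p = 0.0454 with the block and 0.0995 without), which is named after its values were seen. At an unadjusted p of 0.05, 535 genes were higher (4.78%) and 1439 lower (12.9%) in sgRUVBL2, and the median difference over all genes was -0.05. This lean depended on the TPM scale: with each library rescaled by median of ratios, the counts were 1373 higher (12.3%) and 816 lower (7.29%), and the median was 0.02. The 95% interval of the difference lay within 0.5 in size on the log2 scale for 90.7% of genes and within 1 for 99.4%, with a median half-width of 0.164. Differences of 1 log2 unit or more were therefore outside the interval of all but a small share of genes, while smaller ones were often not resolved. Over all genes, the median root-mean-square log2 distance from sgRUVBL1 to sgRUVBL2 libraries was 0.331 in AsPC-1, 0.233 in T3M-4 and 0.319 in BxPC-3. From sgRosa to sgRUVBL1 it was 0.519, 0.532 and 0.360, and from sgRosa to sgRUVBL2 0.457, 0.499 and 0.360. In each line the median distance between the knockouts was thus smaller than that from either to sgRosa. Pairs of sgRUVBL1 libraries lay closer still (medians 0.269, 0.173 and 0.253), whereas pairs of sgRUVBL2 libraries lay farther apart (0.375, 0.282 and 0.513). The last values rested partly on single libraries. Without AsPC-1 sgRUVBL2 replicate 2 the median of sgRUVBL2 pairs was 0.238, below the 0.319 between the knockouts, and without BxPC-3 sgRUVBL2 replicate 3 the remaining pair lay at 0.314 beside 0.280 between the knockouts.

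CXCL1 and MMP7 were higher in sgRUVBL2, and HIST3H2A was lower. CXCL1 is a secreted chemokine that draws neutrophils, MMP7 is matrilysin, a secreted metalloproteinase of epithelial cells, and HIST3H2A (current symbol H2AC25) encodes a histone H2A. The sequence in front of each start is shown because these were the only genes besides the targets to pass in the 3 lines together. The 250 bases upstream of the RefSeq start are given 5′ to 3′ on the gene's strand (GRCh38.p14), with capitals marking the motifs found. They lie at chr4:73869143-73869392 (plus strand) for CXCL1, chr11:102530748-102530997 (minus strand) for MMP7 and chr1:228457874-228458123 (minus strand) for HIST3H2A.
CXCL1: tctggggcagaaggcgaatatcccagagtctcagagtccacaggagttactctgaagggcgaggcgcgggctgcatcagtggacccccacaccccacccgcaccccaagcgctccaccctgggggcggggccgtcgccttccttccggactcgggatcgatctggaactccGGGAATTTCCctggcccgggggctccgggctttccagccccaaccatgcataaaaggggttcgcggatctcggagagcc
MMP7: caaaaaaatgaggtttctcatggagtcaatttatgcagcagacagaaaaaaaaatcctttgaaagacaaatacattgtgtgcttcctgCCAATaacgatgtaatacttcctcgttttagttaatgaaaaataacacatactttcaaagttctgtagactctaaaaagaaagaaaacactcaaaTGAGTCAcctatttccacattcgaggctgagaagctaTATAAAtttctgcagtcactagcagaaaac
HIST3H2A: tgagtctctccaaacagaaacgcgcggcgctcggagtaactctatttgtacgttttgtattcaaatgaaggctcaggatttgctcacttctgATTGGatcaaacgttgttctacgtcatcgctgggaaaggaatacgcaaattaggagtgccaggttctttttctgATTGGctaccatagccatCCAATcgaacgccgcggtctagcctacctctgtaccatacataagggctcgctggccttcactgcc
The windows were searched on both strands for an NF-kB motif (GGG, any 2 bases, TTTCC), an AP-1 motif (TGA, any base, TCA), a TATA box and a CCAAT box. CXCL1 held GGGAATTTCC, beginning 79 bases before the start, and 1.73% of 35116 promoter windows held the NF-kB motif. MMP7 held TGAGTCA at 67 bases (AP-1 motif in 6.57% of windows), TATAAA at 30 bases (10.7%) and CCAAT at 162 bases (32.0%). HIST3H2A held the CCAAT box 3 times, as the complement ATTGG at 158 and 84 bases and as CCAAT at 66 bases. These are matches of letters, and no binding was measured by them.

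In AsPC-1, CXCL1 measured 2.44, 1.94, 2.06 and 1.44 TPM in sgRUVBL1 and 3.85, 4.49, 2.71 and 5.59 TPM in sgRUVBL2. Levels in T3M-4 were 108.1, 116.7 and 111.0 TPM against 137.4, 124.9, 129.5 and 146.3 TPM. Levels in BxPC-3 were 20.2, 24.9, 21.5 and 27.1 TPM against 75.3, 45.8 and 32.4 TPM. Libraries did not overlap in any of the 3 lines, and levels in AsPC-1 were close to the filter on low values. CXCL1 rose by 0.69 in sgRUVBL2 (SE 0.13, 95% interval 0.43 to 0.95, limma adjusted p = 0.0347), with line differences of 0.78 in AsPC-1, 0.26 in T3M-4 and 1.02 in BxPC-3. Levels in sgRosa were 1.42 to 2.32, 50.3 to 76.8 and 25.3 to 40.01 TPM in that order, so that in T3M-4 both knockouts lay above the control and in BxPC-3 sgRUVBL1 lay around its lower end.

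MMP7 in AsPC-1 measured 119.7, 125.1, 232.4 and 241.2 TPM in sgRUVBL1 and 309.4, 356.7, 294.0 and 274.5 TPM in sgRUVBL2. In T3M-4 it measured 19.3, 19.02 and 23.5 TPM against 37.1, 24.4, 29.1 and 32.5 TPM. In BxPC-3 it measured 10.4, 8.58, 10.9 and 12.8 TPM against 20.1, 13.8 and 14.4 TPM. The libraries were again apart in each line, although AsPC-1 sgRUVBL1 split into a lower and a higher pair. MMP7 rose by 0.66 (SE 0.12, 95% interval 0.41 to 0.90, limma adjusted p = 0.0313), with line differences of 0.85, 0.55 and 0.54. Both knockouts lay below sgRosa in AsPC-1 (419 to 481 TPM) and above it in T3M-4 (6.77 to 14.7 TPM).

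HIST3H2A in AsPC-1 measured 79.6, 88.5, 71.4 and 70.4 TPM in sgRUVBL1 and 61.8, 37.1, 51.3 and 58.6 TPM in sgRUVBL2. The T3M-4 libraries held 54.1, 53.8 and 59.8 TPM against 32.0, 41.6, 50.4 and 35.7 TPM. The BxPC-3 libraries held 44.1, 42.7, 28.5 and 29.7 TPM against 21.2, 26.3 and 24.3 TPM. The groups were apart in each line, narrowly in T3M-4 (53.8 against 50.4 TPM) and in BxPC-3 (28.5 against 26.3 TPM). HIST3H2A fell by 0.55 in sgRUVBL2 (SE 0.09, 95% interval -0.74 to -0.35, limma adjusted p = 0.0240). The sgRosa libraries held 16.6 to 24.2 TPM in AsPC-1, 19.3 to 25.6 TPM in T3M-4 and 14.4 to 24.0 TPM in BxPC-3, so each sgRUVBL1 library lay above each sgRosa library. Messages of replication-dependent histones mostly lack a poly(A) tail and these libraries were poly(A)-selected, so levels of this gene cover only what the selection kept.

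**Figure D2:**
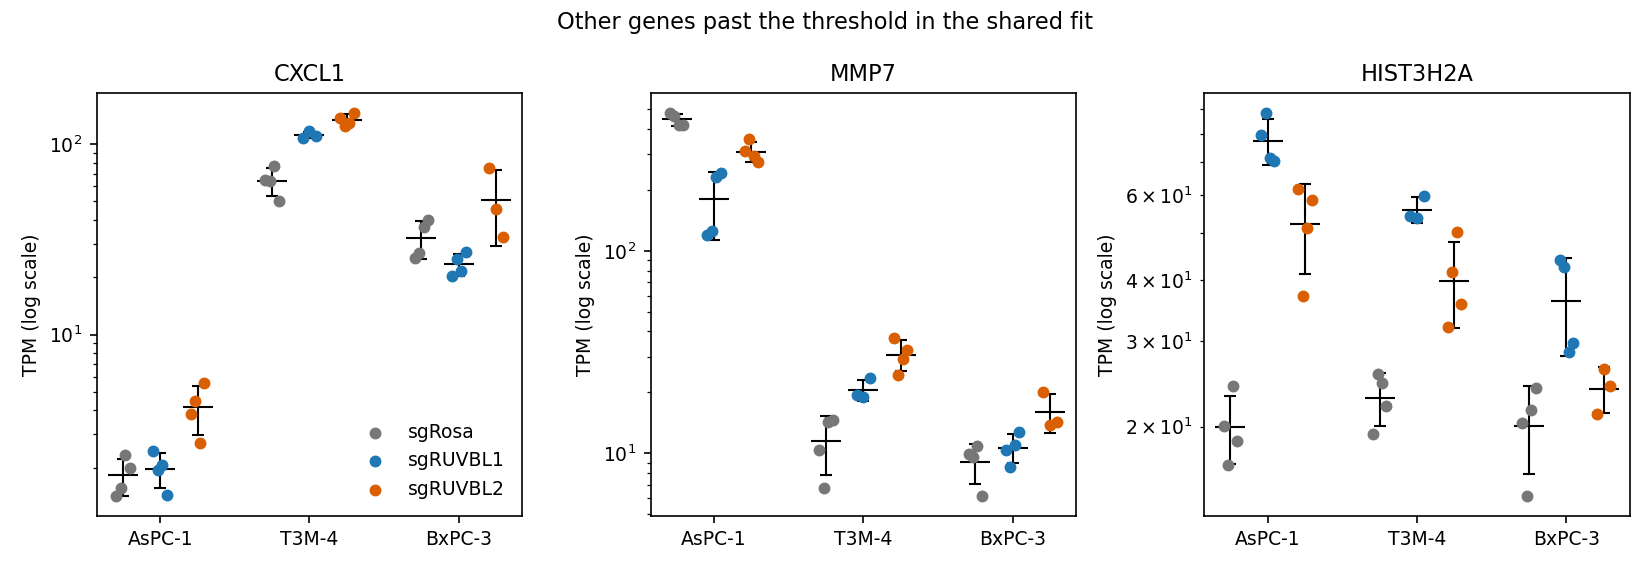
TPM on a log axis of CXCL1, MMP7 and HIST3H2A in each library, with the group mean and error bars of 1 SD. sgRUVBL2 lay above sgRUVBL1 for CXCL1 and MMP7 and below it for HIST3H2A in all 3 lines, with no overlap of the libraries of a line.

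These calls sat near the threshold. With each library left out in turn, CXCL1 stayed past it in 9 of 22 fits, MMP7 in 11 and HIST3H2A in 17, and the adjusted p ranged over all alternatives from 0.00493 to 0.148 for CXCL1, 0.0168 to 0.0877 for MMP7 and 0.00697 to 0.0798 for HIST3H2A. None of the 3 passed with replicate number as a block (limma adjusted p = 0.148, 0.0877 and 0.0798), whereas RUVBL1 and RUVBL2 passed in each alternative.

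In 8 genes the libraries did not overlap in the same direction in all 3 lines, 5 higher (percent of all genes 0.0447) and 3 lower (0.0268) in sgRUVBL2. Besides the genes above these were CKAP4, DBNDD2 and AIFM1, which are named after their values were seen. CKAP4, a membrane protein of the endoplasmic reticulum, differed by 0.27 (limma adjusted p = 0.0995). DBNDD2 differed by 0.16 (limma adjusted p = 0.0967). AIFM1, a mitochondrial oxidoreductase that takes part in cell death, differed by -0.18 (limma adjusted p = 0.110). None of the 3 passed over all genes.

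The position of genes along the cut chromosomes gave the widest pattern in the comparison. Genes on the telomeric side of RUVBL2 on the long arm of chromosome 19 were lower in sgRUVBL2 than genes on the rest of that chromosome. Of 167 tested genes telomeric of RUVBL2, 154 (92.2%) had a negative difference, against 66.6% of all genes. Their median difference was -0.18, against -0.10 in the other 636 genes of chromosome 19 (77.7% negative) and -0.05 over all genes. At an unadjusted p of 0.05, 76 of the 167 were lower and 1 higher, beside 119 lower and 10 higher of the other 636. Of all genes 12.9% were lower and 4.78% higher. These counts and the shares of negative genes are on the deposited scale, and the lean of all genes turned after the rescaling. On the deposited scale none of the 167 passed the adjusted threshold in limma. The whole of chromosome 19 had the lowest median of the chromosomes (-0.11), followed by chromosome 22 (-0.10) and chromosome 16 (-0.07).

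With line as a block, the medians telomeric of RUVBL2 were lower than those on its centromeric side. In the 44 genes within 2 Mb on the centromeric side the median difference was -0.09. In the 44 genes within 2 Mb on the telomeric side it was -0.15, and in the next 30 genes, from 2 to 4 Mb, it was -0.20. Beyond that it stayed between -0.18 and -0.20 to the end of the arm, while on the centromeric side no interval went below -0.11. In AsPC-1 alone the telomeric median was -0.11 against -0.08 for the rest of the chromosome, in T3M-4 -0.15 against -0.04 and in BxPC-3 -0.28 against -0.16. Single intervals of a line did not all follow this order. In AsPC-1 the interval from 2 to 4 Mb on the telomeric side had a median of -0.02, above every centromeric interval of that line, and in T3M-4 the first 2 Mb (-0.05) were no lower than the interval from -5 to -2 Mb (-0.07). Among telomeric genes the libraries were apart, lower in sgRUVBL2, for 17 in AsPC-1, 33 in T3M-4 and 24 in BxPC-3 of the 167, where the same was true of 3.67%, 5.91% and 2.49% of all genes. They were apart in the other direction for 1, in T3M-4, where this held for 5.11%, 3.6% and 3.84% of all genes in the same order of lines.

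**Figure D3:**
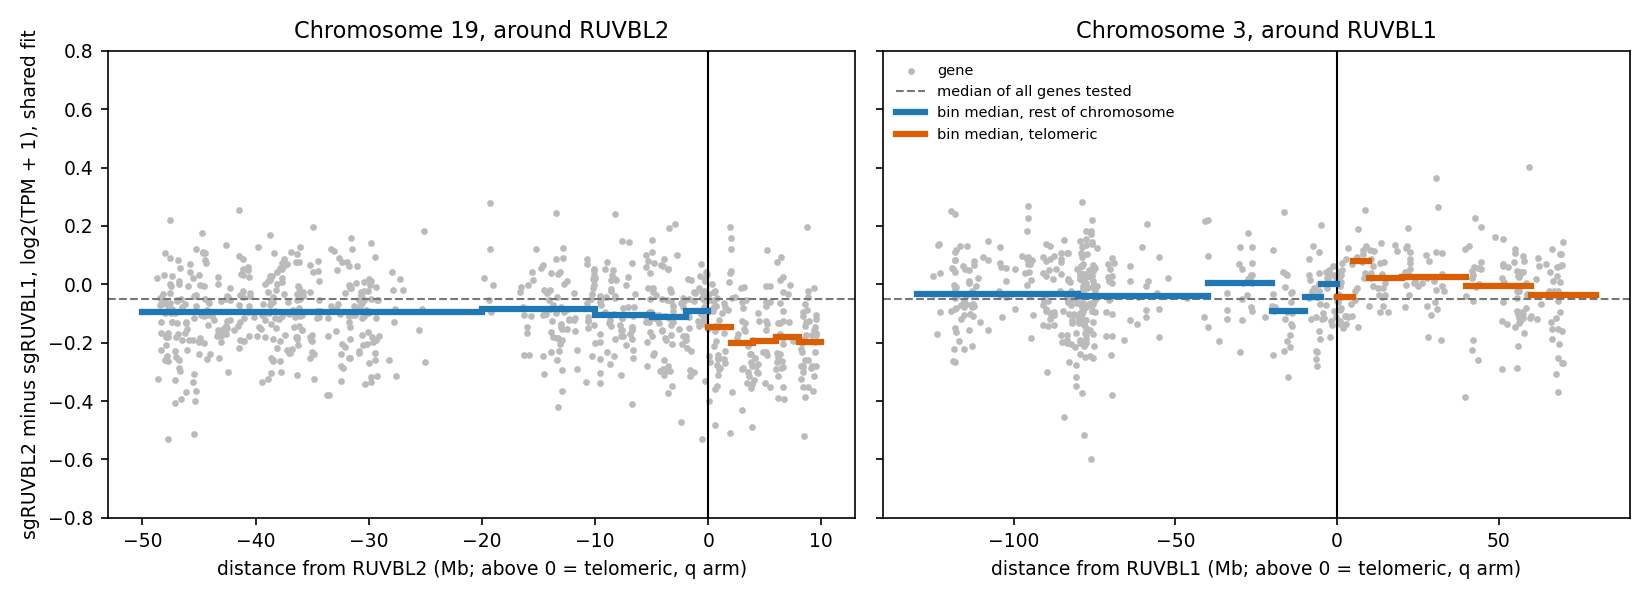
Difference of each gene between sgRUVBL2 and sgRUVBL1 with line as a block (log2(TPM + 1) scale) against its distance in Mb from RUVBL2 on chromosome 19 (left) and from RUVBL1 on chromosome 3 (right). Points are genes, coloured bars are medians of intervals and the dashed line is the median of all genes, -0.05; the medians telomeric of RUVBL2 sit lower than those of the rest of chromosome 19, and those telomeric of RUVBL1 do not.

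This stretch is rich in clustered zinc finger genes, and that feature moved with the result. The 76 telomeric genes with zinc finger names had a median difference of -0.22 and the other 91 a median of -0.15, of which 87.9% were negative. On the rest of chromosome 19 the corresponding medians were -0.11 in 88 genes and -0.09 in 548 genes, and 225 zinc finger genes on other chromosomes had a median of -0.09. The gap between telomeric genes and the rest was -0.09 over all genes and -0.06 without zinc finger names. What part zinc finger genes, base composition or the cut itself had in this gap was not tested.

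The gap was also read in each library, as the median of telomeric genes minus the median of the rest of chromosome 19, both relative to the mean of sgRosa. In AsPC-1 it ranged from -0.03 to 0.01 in sgRUVBL1 and from -0.12 to -0.04 in sgRUVBL2. In BxPC-3 it ranged from 0.01 to 0.02 against -0.13 to -0.09. In these experiments sgRUVBL2 lay below both sgRUVBL1 and sgRosa. The 4 AsPC-1 sgRUVBL1 libraries of experiment 2, relative to their own sgRosa, ranged from -0.05 to 0.01, and the lowest of them lay below the highest sgRUVBL2 library of experiment 3. In T3M-4 the gap ranged from 0.04 to 0.10 in sgRUVBL1 and from -0.04 to 0.02 in sgRUVBL2, so the groups were apart there too, but sgRUVBL2 overlapped sgRosa (-0.03 to 0.01) and sgRUVBL1 lay above it. In AsPC-1 sgRUVBL2 replicate 2, the library that stood apart over all genes, the gap was -0.05, within the range of its group.

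The same reading at the RUVBL1 cut, with the sign reversed, was smaller and differed between lines and experiments. Of 205 genes telomeric of RUVBL1 on chromosome 3, 49.3% had a negative difference and the median was 0.00, against 60.4% and -0.04 in the other 396 genes, a gap of 0.04. At an unadjusted p of 0.05, 18 were higher and 8 lower in sgRUVBL2, beside 29 higher and 32 lower of the other 396. Of all genes 4.78% were higher and 12.9% lower. In T3M-4 the gap per library ranged from -0.12 to -0.08 in sgRUVBL1 and from -0.07 to -0.03 in sgRUVBL2, and in BxPC-3 from -0.03 to -0.01 against 0.02 to 0.07. In AsPC-1 it ranged from 0.05 to 0.07 against 0.03 to 0.08, so the libraries overlapped. In the AsPC-1 sgRUVBL1 libraries of experiment 2 it ranged from -0.09 to -0.02, on the side of sgRUVBL1 in T3M-4 and BxPC-3. The sgRosa libraries ranged from -0.02 to 0.03 in T3M-4, above both knockouts, and from -0.04 to 0.02 in AsPC-1 experiment 3, below both. There the gap on chromosome 3 also left the control in sgRUVBL2, whose target lies on chromosome 19. In BxPC-3 sgRosa ranged from -0.02 to 0.01, overlapping sgRUVBL1 and below sgRUVBL2. Within 1 Mb of the target, 14 genes around RUVBL1 had a median difference of -0.04 and 57 genes around RUVBL2 a median of -0.10, and none of either set besides the target passed in limma.

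**Figure D4:**
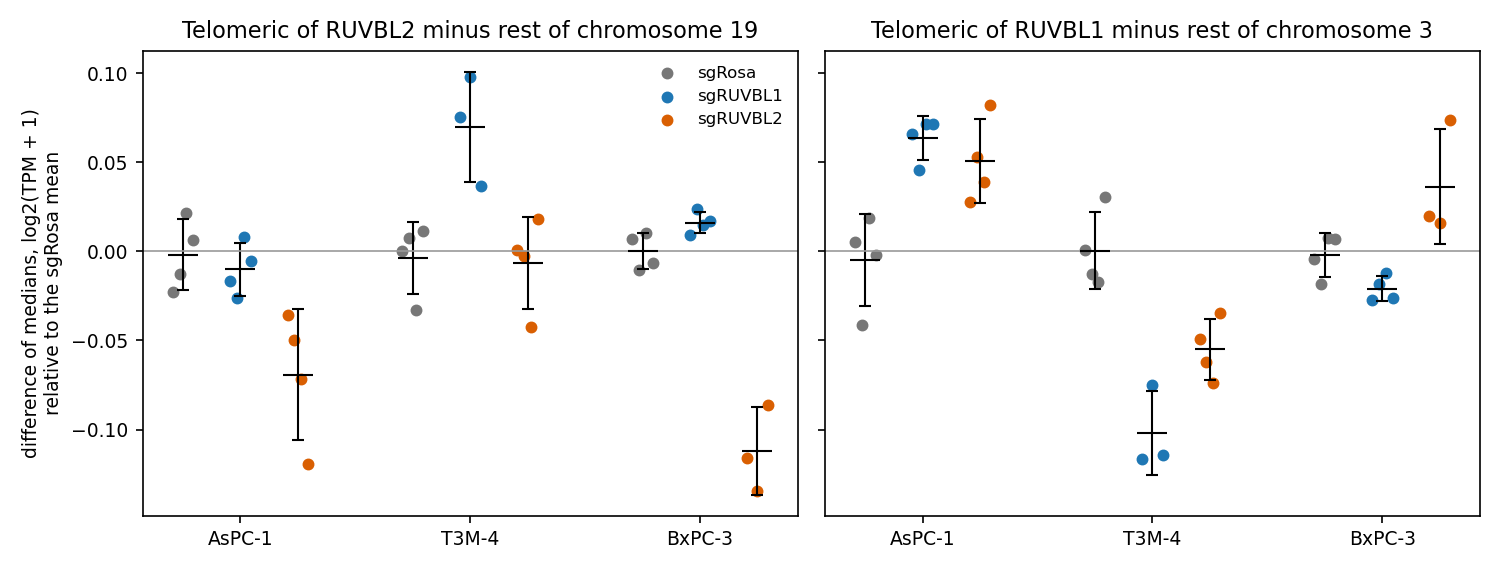
For each library, the median log2(TPM + 1) of genes telomeric of the cut minus that of the rest of the chromosome, relative to the sgRosa mean, for RUVBL2 on chromosome 19 (left) and RUVBL1 on chromosome 3 (right). Points are libraries, with group means and error bars of 1 SD. On chromosome 19 each sgRUVBL2 library lies below each sgRUVBL1 library of the same line and experiment, while on chromosome 3 the AsPC-1 libraries overlap.

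Gene lists for the known roles of RUVBL1/2 showed small median differences. The counts of members at an unadjusted p of 0.05 stand here beside 4.78% higher and 12.9% lower of all genes, or 12.3% and 7.29% after the median-of-ratios rescaling. Of 20 members of R2TP and its partners, 1 was higher and 3 lower, with a median of -0.06 beside -0.05 over all genes. The chaperone HSP90AB1 differed by 0.09 (95% interval 0.03 to 0.15). The adaptor ZNHIT3 differed by -0.15 and the prefoldin-like subunit PDRG1 by -0.19. All 20 intervals lay within 0.5. None of the 20 passed over all genes.

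The client complexes were similar. Of 16 RNA polymerase II subunits and assembly factors, 0 were higher and 5 lower (median -0.11), or 0 and 1 after the rescaling, with POLR2L, a small subunit shared by the polymerases, at -0.19. The lowest difference among the 16 was -0.68 with line as a block and -1.40 in BxPC-3 alone, and 15 intervals lay within 0.5. Of 30 snoRNP and ribosome biogenesis genes, 0 were higher and 5 lower (median -0.04), with the box C/D core protein NOP58 at -0.19. None of the 6 PIKK kinases reached an unadjusted p of 0.05 with line as a block (median -0.13). In T3M-4 alone 2 were lower, beside 6.67% of all genes. Their medians were 0.10 in AsPC-1, -0.33 in T3M-4 and -0.20 in BxPC-3. With AsPC-1 sgRUVBL1 of experiment 2, each knockout relative to its own sgRosa, the median was 0.86. In CFPAC-1, a further line read below, it was 0.45. Over all genes both of these readings gave 0.09. Of 32 INO80, SRCAP and TIP60 subunits, 1 was higher and 3 lower (median -0.02). Their lowest difference was -0.49 with line as a block and -0.98 in BxPC-3 alone, and 29 intervals lay within 0.5. Of 77 cytosolic ribosomal proteins, 12 were higher and 0 lower (median 0.05), beside 4.78% and 12.9% of all genes. Rescaled, 9 were higher and 0 lower, beside 12.3% and 7.29%, so the excess of higher members did not hold on that scale. Each of the 77 intervals lay within 0.5. After the rescaling the medians of R2TP, snoRNP and chromatin complex genes were 0.01, 0.03 and 0.05. The members higher and lower were then 1 and 0, 1 and 1, and 5 and 1 in that order. The median changed sign between the scales in 10 of 26 lists, these 3 among them, so that no direction held under both. None of the members of these lists passed over all genes in limma.

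Proliferation and stress genes also differed little. Of 40 DNA replication genes, 0 were higher and 7 lower at an unadjusted p of 0.05 (median -0.06), or 2 and 5 after the rescaling. Of 30 mitosis genes 2 were higher and 2 lower (median 0.01), or 4 and 0 after the rescaling. Beside the counts of this paragraph stand 4.78% higher and 12.9% lower of all genes as deposited, and 12.3% and 7.29% rescaled. Of 23 p53 targets, 3 were higher and 2 lower (median -0.03), with the AKT inhibitor PHLDA3 at 0.33 and cyclin G1 (CCNG1) at 0.26. Their differences ran from -0.32 to 0.33, and 12 of the 23 were negative. Of 13 BCL2 family genes 2 were higher and 3 lower, with the BH3-only gene PMAIP1 at 0.33, and the differences ran from -0.26 to 0.33. Counts were 2 higher and 1 lower of 20 integrated stress response genes, 2 and 1 of 16 unfolded protein response genes, 1 and 1 of 19 NRF2 genes, and 0 and 2 of 19 hypoxia and glycolysis genes. Of 34 proteasome subunits 3 were higher and 2 lower, among them the interferon-induced PSMB8 (0.21) and PSMB9 (0.27). The medians of DNA replication, p53 target, integrated stress response and hypoxia genes changed sign after the rescaling (0.01, 0.04, 0.07 and 0.01). No member of these lists passed over all genes in limma.

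Interferon-stimulated, cholesterol synthesis and cytokine genes leaned higher in sgRUVBL2, unevenly between lines. Of 28 interferon-stimulated genes, 12 were higher and 1 lower at an unadjusted p of 0.05 (beside 4.78% and 12.9% of all genes), and the median was 0.20. After the rescaling 15 were higher and 1 lower (beside 12.3% and 7.29%), with a median of 0.27. The line medians were 0.22 in AsPC-1, -0.01 in T3M-4 and 0.23 in BxPC-3. IFIT2, which binds viral RNA, measured 36.5, 45.8, 43.3 and 49.3 TPM in AsPC-1 sgRUVBL1 and 68.8, 73.0, 65.9 and 75.6 TPM in sgRUVBL2. Its libraries were apart there, with sgRosa at 54.0 to 71.6 TPM. The shared difference was 0.33 for IFIT2, 0.35 for IFIT1, 0.35 for IFI44 and 0.26 for the exonuclease ISG20. None passed over all genes.

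Of 29 cholesterol and fatty acid synthesis genes, 10 were higher and 0 lower at an unadjusted p of 0.05 (beside 4.78% and 12.9% of all genes), or 17 and 0 after the rescaling (beside 12.3% and 7.29%). The median was 0.09 with line as a block, 0.28 in AsPC-1, -0.05 in T3M-4 and -0.01 in BxPC-3. MSMO1, a sterol methyl oxidase, measured 40.8, 43.2, 51.9 and 52.0 TPM in AsPC-1 sgRUVBL1 and 68.1, 89.4, 78.8 and 61.8 TPM in sgRUVBL2, with sgRosa at 62.3 to 85.0 TPM. The sgRUVBL2 libraries of that line were level with the control and the sgRUVBL1 libraries below it. When the AsPC-1 sgRUVBL1 libraries of experiment 2 were used instead, each knockout relative to its own sgRosa, the median of the list was -0.13. That reading gave 0.09 over all genes, 0.32 over interferon-stimulated genes and 0.25 over NF-kB and cytokine genes. The shared difference was 0.31 for MSMO1, 0.38 for ACAT2 and 0.25 for CYP51A1, and none of these passed over all genes.

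Of 20 NF-kB and cytokine genes, 6 were higher and 0 lower (beside 4.78% and 12.9% of all genes), or 8 and 0 after the rescaling (beside 12.3% and 7.29%). Their median was 0.08, with 0.20 in AsPC-1, -0.13 in T3M-4 and 0.20 in BxPC-3, and CXCL1 was the member that passed over all genes. CXCL8, the neutrophil chemokine IL-8, measured 5.11, 8.09, 3.90 and 6.19 TPM in AsPC-1 sgRUVBL1 and 12.2, 15.4, 10.9 and 10.2 TPM in sgRUVBL2. Levels in BxPC-3 were 18.3, 15.0, 21.9 and 25.5 TPM against 44.9, 38.0 and 41.8 TPM. Levels in T3M-4 were 199.7, 278.9 and 197.9 TPM against 198.4, 221.5, 202.8 and 191.9 TPM. Libraries were apart in AsPC-1 and BxPC-3 and overlapped in T3M-4, where both knockouts exceeded sgRosa (69.8 to 88.2 TPM). The shared difference of CXCL8 was 0.64 (95% interval 0.34 to 0.95) and did not pass (limma adjusted p = 0.0967). The chemokine CCL20 differed by 0.47 and BIRC3, an inhibitor of apoptosis, by 0.27, without passing.

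Lineage genes did not move alike across lines. Of 17 basal and squamous identity genes, 2 were higher and 1 lower (median 0.10), or 8 and 0 after the rescaling, with FGFBP1 at 0.30 and the keratin KRT16 at 0.45. Of 13 classical identity genes, 1 was higher and 3 lower, but 2 and 0 after the rescaling, and the medians as deposited were 0.19 in AsPC-1, -0.14 in T3M-4 and -0.21 in BxPC-3. Beside these counts stand 4.78% higher and 12.9% lower of all genes as deposited, and 12.3% and 7.29% rescaled. Both lists were mixed with line as a block. The basal differences ran from -0.19 to 0.45, with 5 of 17 negative, and the classical ones from -0.40 to 0.33, with 4 of 13 positive. ELF3, an epithelial transcription factor among the lower classical genes, had mean levels of 417.8 TPM in sgRUVBL1 and 371.8 TPM in sgRUVBL2 in T3M-4. In BxPC-3 its means were 72.4 and 58.1 TPM. None of these genes passed over all genes in limma.

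**Figure D5:**
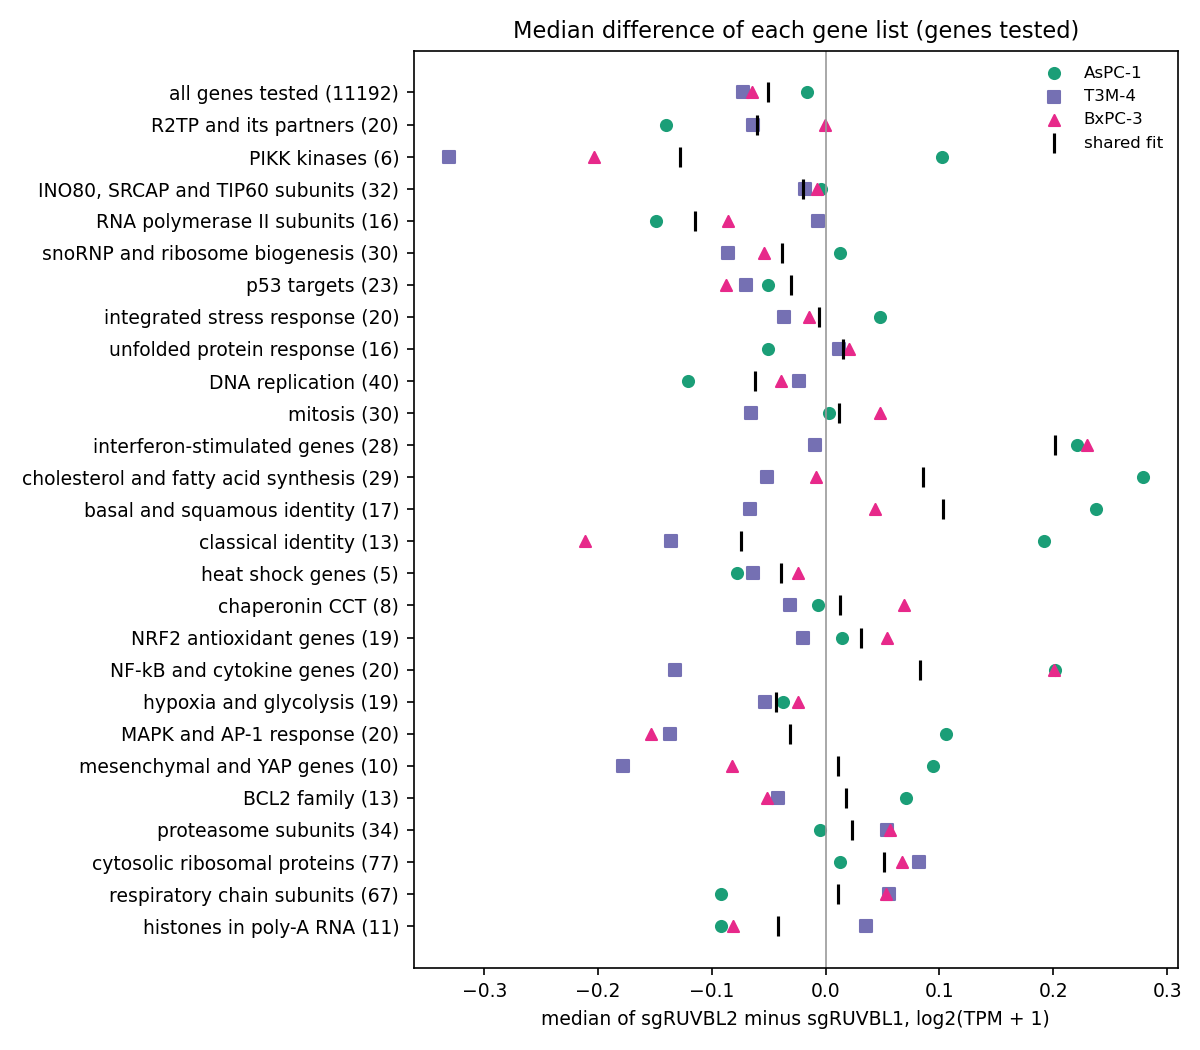
Median difference between sgRUVBL2 and sgRUVBL1 (log2(TPM + 1) scale) over the tested members of each gene list, in each line alone (coloured points) and with line as a block (black bars), with the number of members in parentheses. Interferon-stimulated genes (0.20) had the highest block median and cholesterol genes the highest AsPC-1 median (0.28), beside -0.05 and -0.02 over all genes.

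Each line was also read alone. In AsPC-1, 2 of 11192 genes passed (percent called 0.0179) and these were RUVBL1 (1.19, limma adjusted p = 0.000586) and RUVBL2 (-1.62, limma adjusted p = 0.00399). At an unadjusted p of 0.05, 712 were higher (6.36%) and 724 lower (6.47%). In T3M-4 2 genes passed (0.0179), again RUVBL1 (1.23) and RUVBL2 (-1.47), both at a limma adjusted p of 3.19e-05, with 310 higher (2.77%) and 746 lower (6.67%) at an unadjusted p of 0.05. In BxPC-3 RUVBL1 alone passed (0.88, limma adjusted p = 0.0409, percent called 0.00893), with 231 higher (2.06%) and 296 lower (2.64%) at an unadjusted p of 0.05, and none passed with replicate number as a block (1544 at an unadjusted p of 0.05). The 95% interval lay within 0.5 for 68.5%, 77.5% and 55.9% of genes in the order AsPC-1, T3M-4 and BxPC-3.

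AsPC-1 depended on how its spread was estimated. When the 20 libraries of its experiment, which include other knockouts, shared 1 estimate of the spread, 424 genes passed (percent called 3.79), 244 higher (2.18) and 180 lower (1.61) in sgRUVBL2. They included 8 of 28 interferon-stimulated genes, 8 of 29 cholesterol and fatty acid genes and 5 of 20 NF-kB and cytokine genes, all higher. They also included 3 of 40 DNA replication genes and 3 of 67 respiratory chain subunits, all lower. IFIT2 (0.69, limma adjusted p = 0.000591), MSMO1 (0.65, limma adjusted p = 0.00585) and CCL20 (1.14, limma adjusted p = 0.00654) passed in this fit. Without AsPC-1 sgRUVBL2 replicate 2, the library that stood apart, 520 genes passed, of which 303 were among the 424 and had the same direction, and the fit of the 2 groups alone gave 42 genes. Leaving out sgRUVBL1 replicate 1 gave 91 genes and sgRUVBL1 replicate 2 gave 119.

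The mean of the control was set beside both knockouts in AsPC-1. Of the 244 higher in sgRUVBL2, the sgRosa mean was above both knockouts for 125, between them for 100 and below both for 19. Of the 180 lower in sgRUVBL2, it was below both for 135, between them for 37 and above both for 8. The control thus lay outside both knockouts for 59% and 79.4% of these genes, a smaller share than the 86.9% of all genes. The knockout farther from the control was sgRUVBL1 in 188 of the 244 and 157 of the 180, and in 7110 of all 11192 genes (63.5%). The 424 genes were picked by the gap between the knockouts in these same libraries, so these shares are partly set by the choice. The direction was the same for 53.1% of the 424 in T3M-4 and for 64.6% in BxPC-3. Fits of the other lines with all libraries of their experiment gave 2 genes in T3M-4 (percent called 0.0179) and 4 in BxPC-3 (0.0357).

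Differences between the lines were tested directly by the interaction of line and knockout, which 3 genes passed (percent called 0.0268; 884 at an unadjusted p of 0.05). All 3 were higher in sgRUVBL2 in AsPC-1 and lower in T3M-4, with the libraries apart in both lines. PLAT, tissue plasminogen activator, measured 337.9, 351.0, 376.8 and 370.1 TPM in AsPC-1 sgRUVBL1 and 456.3, 436.8, 464.9 and 470.1 TPM in sgRUVBL2. In T3M-4 it measured 378.7, 429.8 and 377.4 TPM against 346.9, 339.9, 345.0 and 376.4 TPM, and in BxPC-3 124.8, 120.5, 105.8 and 114.1 TPM against 106.9, 84.1 and 75.6 TPM. The log2 differences were 0.35, -0.17 and -0.40 (limma adjusted p of the interaction = 0.0444). In AsPC-1 both knockouts lay below sgRosa (599.7 to 662.5 TPM), and in T3M-4 both lay above it (159.8 to 207.3 TPM).

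KIAA0040 differed by 0.48 in AsPC-1, -0.22 in T3M-4 and -0.12 in BxPC-3 (limma adjusted p of the interaction = 0.0267). The gene listed as Cromer, the name of the blood group carried by the complement regulator CD55, differed by 0.44, -0.24 and -0.24 (limma adjusted p of the interaction = 0.0324). It measured 350.4, 367.1, 368.4 and 363.5 TPM in AsPC-1 sgRUVBL1 and 439.0, 513.0, 509.7 and 503.8 TPM in sgRUVBL2. With replicate number as a block no gene passed the limma interaction test (1079 at an unadjusted p of 0.05).

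KLF5 (chr13:73054976-73077538, GRCh38) showed the same pattern without passing. In AsPC-1 it measured 104.5, 93.9, 122.7 and 111.9 TPM in sgRUVBL1 and 127.6, 134.4, 143.0 and 129.7 TPM in sgRUVBL2. The T3M-4 libraries held 433.2, 446.0 and 432.7 TPM against 312.2, 404.4, 361.9 and 383.1 TPM. In BxPC-3 it measured 297.0, 325.4, 305.0 and 363.7 TPM against 296.6, 357.3 and 245.8 TPM. Libraries were apart in AsPC-1 (0.31) and, in the other direction, in T3M-4 (-0.27), and overlapped in BxPC-3 (-0.12). The shared difference was -0.01 (95% interval -0.17 to 0.15, limma adjusted p = 0.965) and the interaction did not pass (limma adjusted p = 0.285).

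SERPINB5, the KLF5 target that the study used as a reporter, measured 75.9, 80.6, 97.5 and 90.9 TPM in AsPC-1 sgRUVBL1 and 99.9, 125.2, 110.6 and 98.1 TPM in sgRUVBL2. Levels in T3M-4 were 89.5, 92.1 and 87.5 TPM against 81.1, 92.4, 83.8 and 83.5 TPM. The BxPC-3 libraries held 247.5, 260.3, 252.9 and 261.4 TPM against 235.7, 285.4 and 287.5 TPM. The libraries were apart in AsPC-1 only among these lines. The shared difference was 0.12 (95% interval -0.01 to 0.25, limma adjusted p = 0.303), which leaves out a difference of 0.5 in either direction.

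Across genes, the differences of the lines were only weakly alike. The Pearson correlation over 11192 genes was 0.04 between AsPC-1 and T3M-4, 0.23 between AsPC-1 and BxPC-3 and 0.42 between T3M-4 and BxPC-3, the basal-like pair, with Spearman correlations of 0.02, 0.23 and 0.41. Each value moved with single libraries. Without AsPC-1 sgRUVBL2 replicate 2 the correlation of AsPC-1 was 0.02 with T3M-4 and 0.08 with BxPC-3, and without BxPC-3 sgRUVBL2 replicate 3 that of T3M-4 and BxPC-3 was 0.24. With any 1 library left out the ranges were -0.04 to 0.17, 0.08 to 0.34 and 0.24 to 0.51, the highest for both AsPC-1 pairs without AsPC-1 sgRUVBL1 replicate 4. The lines share no library, but genes are not independent replicates. At an unadjusted p of 0.05, T3M-4 and BxPC-3 shared 70 genes with the same direction and 2 with the opposite direction. The 70 were 6.63% of the T3M-4 list and 13.3% of the BxPC-3 list. AsPC-1 and BxPC-3 shared 80 with the same direction (5.57% and 15.2% of their lists) and 24 with the opposite one. Between AsPC-1 and T3M-4, 71 were shared with the same direction (4.94% and 6.72%) and 78 with the opposite one.

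CFPAC-1, a further PDAC line with 4 sgRUVBL1 and 2 sgRUVBL2 libraries in its experiment 1, was read outside the comparison. RUVBL1 measured 37.3 to 53.7 TPM in sgRUVBL1 and 140.0 and 129.8 TPM in sgRUVBL2, and RUVBL2 178 to 204 TPM against 67.4 and 48.5 TPM. These were the genes that passed, 2 of 12529 (percent called 0.016), at 1.61 (limma adjusted p = 0.00161) for RUVBL1 and -1.67 (limma adjusted p = 0.00112) for RUVBL2. RUVBL1 mRNA in sgRUVBL2 stood at 83.5% of sgRosa, below each sgRosa library as in the other lines. Of the genes called in the 3 lines, CXCL1 differed by -0.16, MMP7 by 0.14 and HIST3H2A by -0.15 there, and none of the 3 passed. The median over interferon-stimulated genes was 0.64, beside 0.09 over all genes. It was 0.05 over cholesterol and fatty acid synthesis genes and 0.13 over NF-kB and cytokine genes.

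The chromosome 19 reading in CFPAC-1 resembled that in the other lines. The median difference telomeric of RUVBL2 was -0.09, with 71.9% of genes negative, against 0.03 for the rest of chromosome 19. The gap per library ranged from -0.00 to 0.12 in sgRUVBL1 and was -0.09 and -0.10 in sgRUVBL2, so the groups were apart in this line too. At the RUVBL1 cut the libraries of this line overlapped. The CFPAC-1 sgRosa libraries, which serve here only as the common zero of the gap, held 1 library that stood apart, with PLAT at 64.1 TPM against 330.0 to 347.0 TPM in the other 3.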

How the data were processed

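Poly(A)-selected RNA was sequenced as single-end reads. Per the labels and methods, the authors quantified reads with kallisto (build hg38), removed transcripts of low abundance at a limit not given in the sources used here, summarised to genes with tximport and deposited TPM tables. The depth per library is not given in the sources used here, and TPM keep no depth. The tables' gene names were matched to RefSeq symbols and synonyms; 568 of 19875 did not match (167 of 11192 tested), and 10948 tested genes had a position. Of the lists, 1 of 16 snoRNA host genes, 0 of 13 mitochondrial transcripts and 6 of 16 heat shock genes were in the tables.

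TPM were analysed as log2(TPM + 1) with limma 3.58.1 (R 4.3.3; empirical Bayes with trend, two-sided, Benjamini-Hochberg over all tested genes, threshold 0.05), because count models need counts. The fit over lines had line and knockout as terms; lines were also fitted alone, and the difference between lines by an F test of the interaction. Genes needed a mean of at least 1 TPM in each line. The genes named were the targets with KLF5 and SERPINB5, genes past the threshold with libraries apart in each line, the first genes of the interaction test, and up to 4 members of each list with the lowest p. A gene that this rule names is not reported here. The members and lists were chosen with earlier results of these data known. Gene lists and chromosome arms were described by counts and medians without a test.

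In simulated data with 200 of 11192 genes changed, the fit over lines recovered 84% of genes changed by 0.5 and 99% of those changed by 1 (log2); AsPC-1 alone recovered 30% and 81%, T3M-4 51% and 86%, BxPC-3 14% and 65%. In the measured libraries, 83 genes had a difference over 0.5 in size with line as a block, and 5 genes passed. The simulated libraries varied independently, and each change in the fit over lines was the same in all 3 lines. In that simulated fit 9 unchanged genes passed as well. Whether the recovery rates hold for the measured libraries was not tested. Same-numbered libraries deviated together in T3M-4 (r from 0.11 to 0.25) and BxPC-3 (0.25 to 0.49) but not AsPC-1 (-0.15 to 0.08). The 0.49 came from replicate 3, whose sgRUVBL2 library stood apart. Over the lines, 6 of 10 sgRUVBL1 libraries correlated best with the sgRUVBL2 library of their own number. The numbers may thus pair libraries in T3M-4 and BxPC-3, which the labels do not state. The main fits had no block. The alternatives were another pseudocount (0.1), other filters (none, 5 TPM), median-of-ratios scaling, the replicate block, a prior without trend, other estimates of the spread and each library left out.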

Additional observations from a re-analysis of the deposited data

Results flagged for a closer look

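In 5 of 144 groups of 4 libraries examined for named genes, 1 library lay far from the other 3; chance gives about 1 in 20 groups. KIAA0040 was high in AsPC-1 sgRUVBL1 replicate 3, at 138.5 TPM against 115.6 to 118.5 TPM. The gene listed as Cromer was low in AsPC-1 sgRUVBL2 replicate 1, at 439.0 TPM against 503.8 to 513.0 TPM. BIRC3 was high in AsPC-1 sgRUVBL2 replicate 2, at 26.2 TPM against 22.8 to 23.3 TPM, in the library that stood apart over all genes. MSMO1 was low in T3M-4 sgRUVBL2 replicate 3, at 63.7 TPM against 69.1 to 69.5 TPM, and in BxPC-3 sgRUVBL1 replicate 1, at 84.4 TPM against 98.2 to 100.5 TPM.

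The difference between sgRUVBL2 and sgRUVBL1 itself differed between lines for KIAA0040 (limma adjusted p = 0.0267), the gene listed as Cromer (limma adjusted p = 0.0324) and PLAT (limma adjusted p = 0.0444), each higher in AsPC-1 and lower in T3M-4. For KLF5 each sgRUVBL2 library lay above each sgRUVBL1 library in AsPC-1 and below each in T3M-4, and the test between the lines did not pass (limma adjusted p = 0.285).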

How the results depend on the processing

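RUVBL1 and RUVBL2 passed in the fit over lines, in the same direction, under each of 27 alternatives, and CXCL1, MMP7 and HIST3H2A kept their direction. The median difference changed sign after median-of-ratios scaling in 10 of 26 gene lists, and the difference of KLF5 ran from -0.05 to 0.04 with a library left out. Beside 5 genes over the 3 lines, 10 passed with no filter, 26 (12 higher, 14 lower) after median-of-ratios scaling, 8 with a prior without trend, 8 for the mean of the 3 line differences, 3 with the replicate block, and 2 to 12 with a library left out (12 without AsPC-1 sgRUVBL1 replicate 4; 2 without AsPC-1 sgRUVBL1 replicate 2, T3M-4 sgRUVBL2 replicate 1 or 4, or BxPC-3 sgRUVBL1 replicate 1 or 2). Beside 10151 genes with an interval within 0.5, there were 17460 with no filter and 9861 to 10576 with a library left out. Beside 2 genes in AsPC-1 alone, 1 passed with no filter, 10 with at least 5 TPM, 8 after scaling, 137 with the spread shared over the 22 libraries, 424 with all libraries of the experiment (474 scaled) and 2 to 42 with a library left out (42 without sgRUVBL2 replicate 2); the 424 became 91 to 521 with a library left out. With sgRUVBL1 of experiment 2, each knockout relative to its own sgRosa, 2819 genes passed (2119 higher, 700 lower); the cause was not tested. T3M-4 alone gave 2 to 4 with a library left out (4 without sgRUVBL2 replicate 2). Beside 1 in BxPC-3, 0 passed after scaling (limma; 866 at an unadjusted p of 0.05) and with the replicate block, 2 with the shared spread, 4 with all libraries (11 scaled), and 0 to 1 with a library left out (0 without any 1 sgRUVBL1 library or sgRUVBL2 replicate 2). The 3 genes that differed between lines became 8 with no filter, 0 with the replicate block and 0 to 11 with a library left out (11 without BxPC-3 sgRUVBL2 replicate 2). CFPAC-1 gave 12 genes with the replicate block (2 higher, 10 lower) and 1 to 3 with a library left out. The gap at RUVBL2 stayed between -0.10 and -0.07 and that at RUVBL1 between 0.03 and 0.04 with a library left out. The replicate block changed no other call of the counts above. Of the counts and medians answering a comparison, 146 alternatives stayed close to the reported value and 58 moved; the cause was not tested. The labels do not tie libraries to sgRNAs, so differences between sgRNAs of 1 gene are within the spread. With depth unknown, no counting error could be given for low genes such as CXCL1 in AsPC-1.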

Other observations

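After median-of-ratios scaling, 26 genes passed with line as a block, which add to the genes above CXCL8 (0.71, limma adjusted p = 0.0470), CKAP4 (0.34, limma adjusted p = 0.0409) and PHLDA3 (0.40, limma adjusted p = 0.0470). Among the others were CD74, the invariant chain of antigen presentation, at 0.62 (limma adjusted p = 0.0470) and the class I antigen gene HLA-B at 0.42 (limma adjusted p = 0.0470), both higher in sgRUVBL2. The zinc finger genes ZNF550 (-0.32, limma adjusted p = 0.0444) and ZNF888 (-0.42, limma adjusted p = 0.0137) were lower. CD74, HLA-B, ZNF550 and ZNF888 were named after their values were seen, and none of them passed on the deposited scale, where 5 genes did.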
